A study of Geissois pruinosa and Geissois racemosa with 6 samples.

Results

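In leaves of 2 woody New Caledonian species of the genus Geissois (Cunoniaceae), 86 of 54969 assembled transcript sequences (contigs) were counted in every plant and stood at least 4 times higher in each Geissois pruinosa plant than in any Geissois racemosa plant. They were chosen on CPM, the counts of a contig per 1000000 counts of its library. A contig had to have at least 10 counts in each of the 6 libraries, a mean under 1000 CPM, and a lowest value among the 3 G. pruinosa plants at least 4 times the highest value among the 3 G. racemosa plants. The minimum of 10 counts and the limit of 1000 CPM were met by 28119 contigs, so the 4-fold gap was found in 0.306% of them. Since the difference between the species chose these contigs, their levels and fold changes are given as a description, without a test.

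The samples were leaves of 3 wild G. pruinosa plants, a species described in the labels as a nickel hyperaccumulator, and of 3 wild G. racemosa plants, described as not accumulating nickel. Each library holds the RNA of 1 plant, and no sites were shared. Collection took place on 11 March for G. pruinosa, on 11 June for racemosa plant 1 and on 12 June for racemosa plants 2 and 3, within 1 year. The labels name serpentine maquis and rainforest on limestone as habitats and give no age or treatment, and species, site, season and habitat cannot be told apart.

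Nickel hyperaccumulators take up nickel from metal-rich soils and hold it in their leaves at levels that would poison most plants. Comparisons with a related species that does not accumulate the metal look for transcripts with a raised level in the accumulator, since metal transporters and enzymes that make metal-binding ligands have been found this way in other hyperaccumulators. A de novo transcriptome is built from the reads alone, so 1 gene can appear as several contigs, such as alleles, splice forms, fragments or close copies. Here the contigs were assembled from G. pruinosa and carry numbers only, so no gene name, function or sequence is given for any of them.

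A G. racemosa read was counted only where it matched a G. pruinosa contig. A low level in G. racemosa and poorer matching of its reads cannot be told apart in these counts, and neither can fewer cells of a type and less RNA per cell in whole leaves. Library totals ran from 47385027 to 54103458 counts in G. pruinosa and from 23661301 to 64908952 in G. racemosa, so that 10 counts were 0.423 CPM in racemosa plant 1 and between 0.154 and 0.211 CPM in the other 5 libraries. In 2 libraries the values stood apart. Pruinosa plant 2 had 0 counts in only 2 contigs, against 3134 to 8727 in the other libraries. In pruinosa plant 3, no contig with at least 500 counts in racemosa plant 1 (8311 contigs) fell below 0.294 of its CPM there, a ratio that the other 4 libraries undercut in 136 to 1028 of those contigs. The fits, the gap, the spread and the contigs that plant 3 leads most strongly are therefore also described without pruinosa plant 3.

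Most members averaged 10 CPM or more in G. pruinosa, and most averaged under 10 CPM in G. racemosa. The median of their mean levels was 18.6 CPM over the G. pruinosa plants (range 2.74 to 1328), against 1.04 CPM over the G. racemosa plants (range 0.336 to 156). In G. pruinosa, 17 of the 86 averaged 100 CPM or more, 45 between 10 and 100 CPM and 24 between 1 and 10 CPM. In G. racemosa, 1 averaged 100 CPM or more, 7 between 10 and 100 CPM, 38 between 1 and 10 CPM and 40 under 1 CPM. All contigs that met the count minimum and the CPM limit had medians of 7.16 CPM over the G. pruinosa plants, against 6.70 CPM over the G. racemosa plants.

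The size of the gap between the species varied widely among members. The lowest G. pruinosa plant stood above the highest G. racemosa plant by a median of 6.07 times. The ratio was between 4 and 5 in 30 members, between 5 and 8 in 27, between 8 and 16 in 23 and 16 or more in 6. Over all 28119 contigs the same ratio had a median of 0.547 and exceeded 1 in 11.1%, that is, in these the lowest G. pruinosa plant was above every G. racemosa plant.

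**Figure D1:**
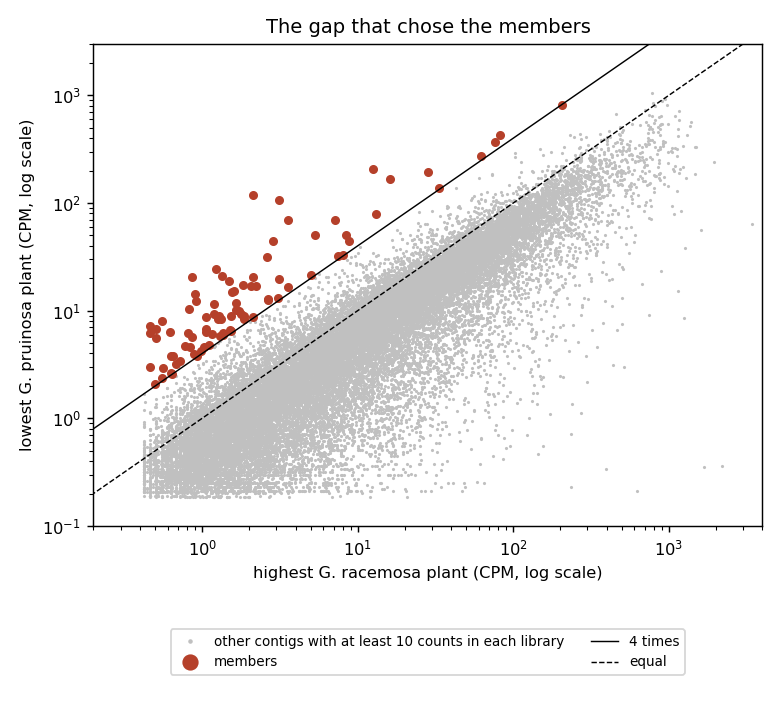
Each point is a contig with at least 10 counts in each library and a mean under 1000 CPM; the vertical axis gives the lowest of the 3 G. pruinosa plants and the horizontal axis the highest of the 3 G. racemosa plants, both in CPM on log scales. The 86 members (red) lie on or above the solid line of 4 times, and most lie under 10 CPM on the G. racemosa axis.

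As a group, the members took a small part of each library. They held 0.605%, 0.978% and 0.961% of all counts in pruinosa plants 1, 2 and 3, against 0.0538%, 0.0338% and 0.0575% in racemosa plants 1, 2 and 3. A different contig led this sum in each G. pruinosa plant. In plant 1 it was Gpru_v1_contig_1686 with 20.9% of the members' sum, in plant 2 Gpru_v1_contig_177 with 32.6%, and in plant 3 Gpru_v1_contig_1338 with 18.8%. In all 3 G. racemosa plants it was Gpru_v1_contig_1686, with 30.4%, 29.0% and 35.6%.

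The most abundant member by the mean over the 6 libraries was Gpru_v1_contig_177. It had 584, 3194 and 207 CPM in pruinosa plants 1, 2 and 3, against 12.5, 2.34 and 2.58 CPM in racemosa plants 1, 2 and 3. Plant 2 was far above the other G. pruinosa plants, and plant 3, the lowest of them, was still 16.6 times the highest G. racemosa plant. It averaged 1328 ± 1627 CPM over the G. pruinosa plants and 5.80 ± 5.78 CPM over the G. racemosa plants (SD, n = 3 each), so the SD was larger than the mean in G. pruinosa and about equal to it in G. racemosa.

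Gpru_v1_contig_1686 was second in abundance and had the smallest spread within G. pruinosa among the 8 most abundant members. It had 1262, 819 and 975 CPM in pruinosa plants 1, 2 and 3, against 164, 98.0 and 205 CPM in racemosa plants 1, 2 and 3. It was the only member that averaged 100 CPM or more in G. racemosa. Its gap, pruinosa plant 2 over racemosa plant 3, was 4.001 times, the narrowest among the members.

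Gpru_v1_contig_1112 and Gpru_v1_contig_675 were also well counted in both species. Gpru_v1_contig_1112 had 429, 1006 and 1092 CPM in pruinosa plants 1, 2 and 3, against 61.1, 17.7 and 82.7 CPM in racemosa plants 1, 2 and 3. Gpru_v1_contig_675 had 733, 371 and 739.7 CPM in the G. pruinosa plants, against 38.6, 76.5 and 67.9 CPM in the G. racemosa plants. The plant order differed between these contigs: plant 1 was lowest in G. pruinosa for Gpru_v1_contig_1112 and plant 2 for Gpru_v1_contig_675.

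Gpru_v1_contig_1338 showed the widest spread of all members within G. pruinosa. It had 8.40, 47.3 and 1803 CPM in pruinosa plants 1, 2 and 3, against 1.27, 0.462 and 1.16 CPM in racemosa plants 1, 2 and 3. Plant 3 was 215 times plant 1, while the G. racemosa plants lay within 2.74 times of each other. Its high mean of 620 ± 1025 CPM in G. pruinosa (SD, n = 3 plants) thus rests on plant 3 alone, and the mean of plants 1 and 2 was 27.8 CPM.

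For both Gpru_v1_contig_67 and Gpru_v1_contig_123, plant 1 was lowest and plant 3 highest in G. pruinosa. Gpru_v1_contig_67 had 271, 517 and 864 CPM in pruinosa plants 1, 2 and 3, against 62.1, 7.73 and 24.5 CPM in racemosa plants 1, 2 and 3. Gpru_v1_contig_123 had 193, 479.8 and 614 CPM in the G. pruinosa plants, against 28.3, 27.3 and 12.5 CPM in the G. racemosa plants. For the eighth, Gpru_v1_contig_34, the values were 184, 529 and 167 CPM in the G. pruinosa plants and 15.1, 10.1 and 16.1 CPM in the G. racemosa plants, so only plant 2 stood out.

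The 6 members with the widest gap included Gpru_v1_contig_177 and 5 contigs of lower level, all under 4 CPM in each G. racemosa plant. Gpru_v1_contig_3601 had the widest gap, 56.7 times. It had 135, 119.9 and 621 CPM in pruinosa plants 1, 2 and 3, against 2.11, 1.69 and 0.921 CPM in racemosa plants 1, 2 and 3. Plants 1 and 2 were close, with a mean of 127 CPM, and plant 3 was 5.18 times plant 2.

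Gpru_v1_contig_689 followed with a gap of 34.2 times. It had 106, 259 and 114 CPM in pruinosa plants 1, 2 and 3, against 2.70, 1.57 and 3.10 CPM in racemosa plants 1, 2 and 3. Here plants 1 and 3 were close and plant 2 was higher. Gpru_v1_contig_8951 had 40.1, 48.4 and 20.7 CPM in the G. pruinosa plants, against 0.803, 0.863 and 0.620 CPM in the G. racemosa plants, a gap of 24.0 times.

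Gpru_v1_contig_3963 and Gpru_v1_contig_2536 had gaps of 19.9 and 19.4 times. Gpru_v1_contig_3963 had 24.2, 74.3 and 310.2 CPM in pruinosa plants 1, 2 and 3, against 0.592, 0.986 and 1.22 CPM in racemosa plants 1, 2 and 3, with plant 3 again highest. Its mean over pruinosa plants 1 and 2 was 49.3 CPM. Gpru_v1_contig_2536 had 95.1, 202 and 69.0 CPM in the G. pruinosa plants, against 3.55, 0.770 and 1.62 CPM in the G. racemosa plants, with plant 2 highest.

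**Figure D2:**
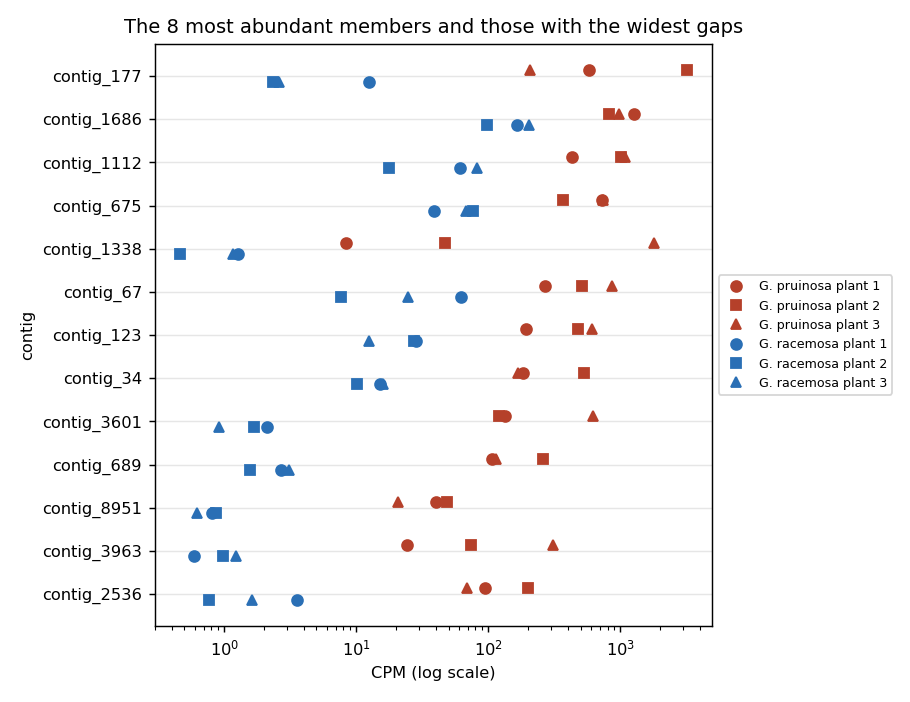
Levels in CPM (log scale, horizontal axis) of the 8 members with the highest mean, followed by the members with the widest gap between the species (Gpru_v1_contig_177 is in both sets). Each symbol is 1 plant, red for G. pruinosa and blue for G. racemosa. The red and blue symbols do not overlap, as the choice requires, and Gpru_v1_contig_1338 spreads from 8.40 to 1803 CPM within G. pruinosa.

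How alike the 3 G. pruinosa plants were was not fixed by the choice, but the gap and the CPM limit put bounds on it. The spread is therefore described without a test. The highest G. pruinosa plant stood above the lowest by a median of 2.33 times in the members and 1.91 times in all 28119 contigs. Over 2 plants only, which narrows any range, the median was 1.59 times without plant 1, 1.97 without plant 2 and 1.70 without plant 3 in the members, against 1.42, 1.59 and 1.42 times in all contigs. In G. racemosa the medians were 2.09 times in the members and 1.70 times in all contigs. The spread was wider in G. pruinosa than in G. racemosa in 50 of the 86 members (58.1%), against 58.2% of all contigs. A spread of at least 4 times was found in 21 members (24.4%) in G. pruinosa, against 14.4% of all contigs there. Without plant 3 it was found in 5 members (5.81%), against 5.75% of all contigs. Without plant 1 it was found in 9 members (10.5%), against 6.24%, and without plant 2 in 17 (19.8%), against 9.68%. In 9 members the spread among G. pruinosa plants was larger than the gap to G. racemosa.

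Gpru_v1_contig_11962 had the smallest spread within G. pruinosa. It had 4.85, 4.92 and 4.72 CPM in pruinosa plants 1, 2 and 3, against 0.423, 0.478 and 0.780 CPM in racemosa plants 1, 2 and 3. Gpru_v1_contig_22659 had 3.76, 3.75 and 4.05 CPM in the G. pruinosa plants, against 0.423, 0.647 and 0.620 CPM in the G. racemosa plants. In both contigs the G. pruinosa plants lay within 1.08 times of each other, and the 0.423 CPM of racemosa plant 1 was 10 counts, the lowest that the choice allowed.

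Gpru_v1_contig_6587 and Gpru_v1_contig_28099 were also even. Gpru_v1_contig_6587 had 10.4, 8.80 and 8.84 CPM in pruinosa plants 1, 2 and 3, against 1.06, 0.693 and 0.7004 CPM in racemosa plants 1, 2 and 3. Gpru_v1_contig_28099 had 17.9, 20.1 and 16.8 CPM in the G. pruinosa plants, against 2.03, 1.91 and 2.22 CPM in the G. racemosa plants. Of these 4 contigs, Gpru_v1_contig_28099 was also the most even in G. racemosa: its highest plant was 1.20 times the lowest in G. pruinosa and 1.16 times in G. racemosa.

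The 4 members with the widest spread in G. pruinosa were Gpru_v1_contig_1338, Gpru_v1_contig_177, Gpru_v1_contig_24531 and Gpru_v1_contig_3963. In 3 of these plant 3 was highest and plant 1 lowest. Gpru_v1_contig_24531 had 6.08, 8.43 and 78.1 CPM in pruinosa plants 1, 2 and 3, against 1.01, 0.955 and 1.16 CPM in racemosa plants 1, 2 and 3. Plants 1 and 2 were thus close to each other, with a mean of 7.25 CPM, and plant 3 was 12.9 times plant 1. The G. racemosa plants differed by 1.22 times at most.

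**Figure D3:**
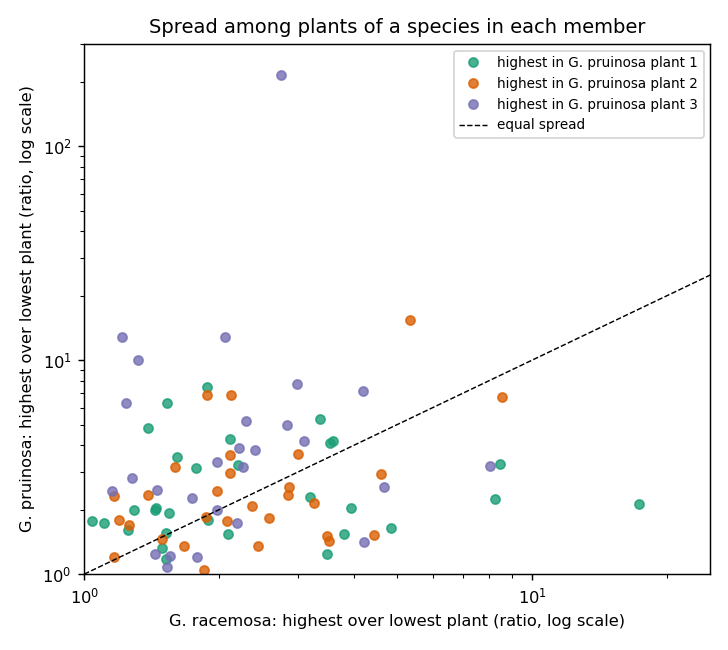
Each point is 1 of the 86 members; the axes give the CPM of the highest plant over that of the lowest plant in G. pruinosa (vertical) and in G. racemosa (horizontal), both as ratios on log scales, and colours give the G. pruinosa plant with the highest level. The 50 points above the dashed line spread more widely in G. pruinosa, and the top point, at 215 times, is Gpru_v1_contig_1338.

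The highest plant was spread almost evenly over the G. pruinosa plants. Plant 1 was highest in 30 members (34.9%), plant 2 in 29 (33.7%) and plant 3 in 27 (31.4%), against 27.6%, 33.1% and 39.3% of all contigs. The lowest plant was plant 1 in 33 members (38.4%), plant 2 in 17 (19.8%) and plant 3 in 36 (41.9%), against 44.9%, 21.8% and 33.4% of all contigs, and this lowest plant is the one that set the gap. In 30 members (34.9%) the highest plant was at least 2 times the next, against 17.1% of all contigs. These were 11 members led by plant 1 (12.8%), 7 led by plant 2 (8.14%) and 12 led by plant 3 (14.0%). Over all contigs the shares were 3.78%, 4.33% and 9.02%, in the same order.

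After Gpru_v1_contig_1686, the most abundant member led by plant 1 was Gpru_v1_contig_4139, with 228, 86.2 and 70.2 CPM in pruinosa plants 1, 2 and 3, against 0.845, 1.02 and 7.16 CPM in racemosa plants 1, 2 and 3. Plant 1 was well above the other G. pruinosa plants, and plant 3 well above the other G. racemosa plants.

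In G. racemosa, plant 2 was most often lowest. It was the lowest in 48 of the 86 members (55.8%) and at least 2 times below the next plant in 19 (22.1%), against 46.4% and 6.18% of all contigs. Plant 1 was highest in 40 members, plant 3 in 36 and plant 2 in 10, against 42.1%, 35.6% and 22.3% of all contigs. Plant 2 also had the largest library and plant 1 the smallest, and the minimum of 10 counts is 0.154 CPM in plant 2 but 0.423 CPM in plant 1; the part of depth in this order was not tested. The widest spread in G. racemosa, 17.3 times, was that of Gpru_v1_contig_7925, a contig singled out after its values were seen. It had 26.9, 26.0 and 12.6 CPM in pruinosa plants 1, 2 and 3, against 2.66, 0.154 and 1.02 CPM in racemosa plants 1, 2 and 3.

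**Figure D4:**
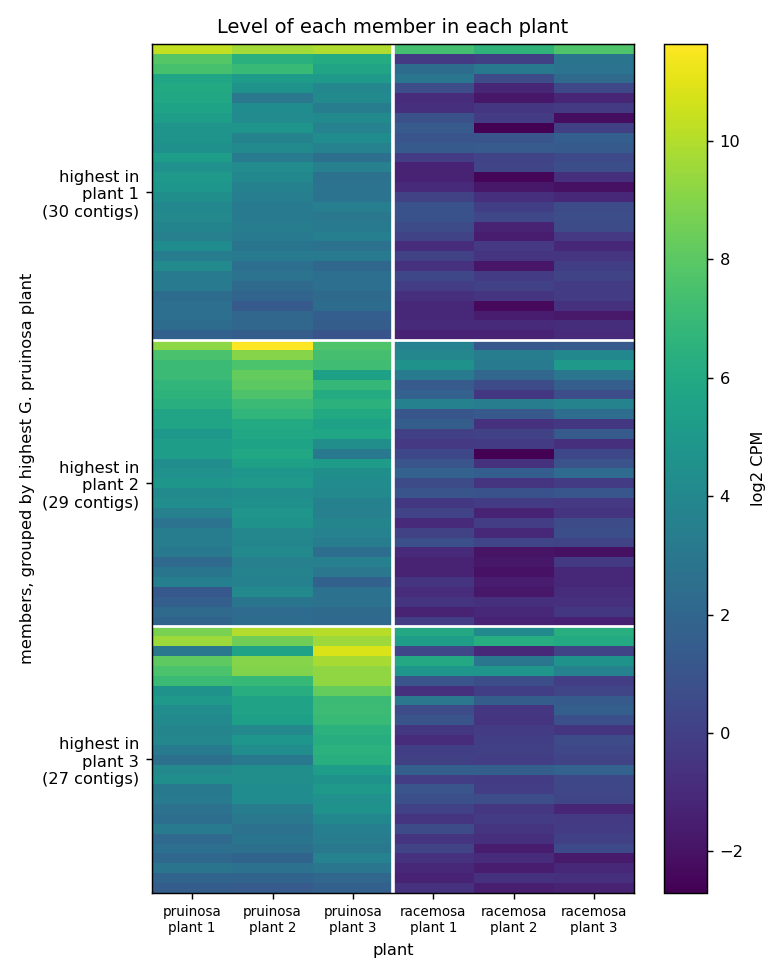
Level of each of the 86 members (rows) in each plant (columns), as log2 CPM on the colour scale. Rows are grouped by the G. pruinosa plant in which the contig was highest (30, 29 and 27 contigs) and ordered by mean level within a group; the G. pruinosa columns on the left are brighter in every row, as the choice requires, and a few rows in the plant 3 group are bright in plant 3 alone.

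Members that were high in 1 plant tended to be high in the others. Spearman's rho of CPM across the 86 members ran from 0.64 to 0.84 over the 3 pairs of G. pruinosa plants, from 0.68 to 0.76 over the 3 pairs of G. racemosa plants and from 0.57 to 0.70 over the 9 pairs across species. Across all 28119 contigs it ran from 0.88 to 0.92, from 0.93 to 0.95 and from 0.84 to 0.94, in the same order. The lowest of the G. pruinosa pairs was plant 1 with plant 3 (0.64) and the highest plant 2 with plant 3 (0.84). These values describe the libraries, since the points of a pair share their depth and members cover a narrower set of levels. Pruinosa plant 3 with racemosa plant 1 gave 0.68 in the members and 0.94 in all contigs. In every member plant 3 stood at least 4.31 times above racemosa plant 1, where the choice requires at least 4 times.

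The libraries were not alike in how many contigs they removed from the list. With pruinosa plant 3 left out of the gap, 204 contigs had it in the other 5 libraries, and the 86 members are those that also had it in plant 3. In the 204, the median ratio of plant 3 to the highest G. racemosa plant was 3.10, and plant 3 was above every G. racemosa plant in 179. With pruinosa plant 1 left out there were 168 contigs, with a median ratio of 4.10 in plant 1, and with pruinosa plant 2 left out 105, with a median ratio of 8.91 in plant 2. Plant 2 thus removed the fewest contigs of the G. pruinosa plants.

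The G. racemosa plants were read the same way, with the lowest G. pruinosa plant set over the plant left out. The contigs numbered 186 without racemosa plant 1, 105 without plant 2 and 119 without plant 3. The median ratio over the left-out plant was 3.51 for plant 1, 9.31 for plant 2 and 5.98 for plant 3. Over all 28119 contigs, a 4-fold gap for 1 plant alone against the other species was found in 1.57%, 2.10% and 1.75% for pruinosa plants 1, 2 and 3, and in 0.854%, 2.10% and 1.16% for racemosa plants 1, 2 and 3. These shares are a background and not what contigs chosen on the other 5 libraries would give without a species difference. The left-out plant was set against plants that had chosen the contigs, and the minimum of 10 counts was asked of all 6 libraries.

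**Figure D5:**
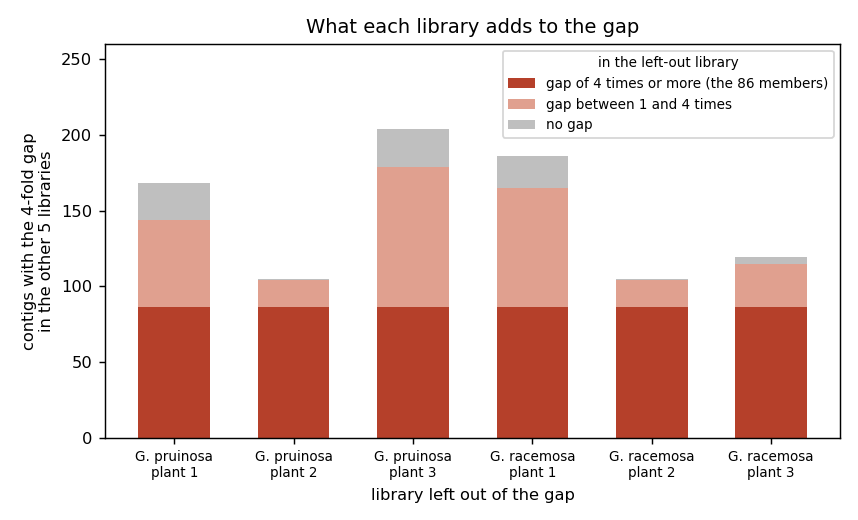
Number of contigs (vertical axis) with the 4-fold gap in 5 libraries, for each library left out in turn (horizontal axis), split by the gap in the left-out library. The red part is the 86 members in each bar; the full bars run from 105 contigs (pruinosa plant 2 and racemosa plant 2) to 204 (pruinosa plant 3), and the grey part, with no gap in the left-out library, from 1 to 25 contigs.

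The edgeR quasi-likelihood fit of all 43447 contigs tested gave the fold changes with their errors. Log2 fold changes (G. pruinosa minus G. racemosa) ran from 2.61 to 9.36 over the 86 members, with a median of 4.06, against 0.10 over all contigs tested. Standard errors ran from 0.26 to 2.18. At a Benjamini-Hochberg adjusted p under 0.05, 74 of the 86 members were called higher, against 1.11% of all contigs; since the species difference chose the members, this count is not evidence on them. The count depended on single libraries: it was 52, 10 and 84 without pruinosa plants 1, 2 and 3, and 1, 0 and 0 without racemosa plants 1, 2 and 3. Over all contigs tested, 367 of 46105, 41 of 44100 and 1326 of 46601 were called higher without pruinosa plants 1, 2 and 3. Without racemosa plants 1, 2 and 3 it was 7 of 47652, 0 of 47260 and 2 of 47182. Without pruinosa plant 3, 2.85% of all contigs were called higher and the median log2 fold change of the members was 3.79.

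The standard error (SE) differed between the named members. Gpru_v1_contig_1338 had the largest log2 fold change of the members, 9.36 (SE 2.18), but was not called (edgeR adjusted p 0.095). Gpru_v1_contig_177, also uneven in G. pruinosa, had 7.77 (SE 1.34). Gpru_v1_contig_67, Gpru_v1_contig_24531, Gpru_v1_contig_4139 and Gpru_v1_contig_21560 were not called either, at edgeR adjusted p from 0.052 to 0.082. Without pruinosa plant 3 the log2 fold change of Gpru_v1_contig_1338 was 4.75, and Gpru_v1_contig_177 had the largest, 8.24. Gpru_v1_contig_3601 had 7.51 (SE 0.91), or 6.28 without plant 3, and Gpru_v1_contig_689 had 5.98 (SE 0.46). The even Gpru_v1_contig_28099 had 3.13 (SE 0.29).

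The members counted least in G. racemosa were close to the minimum of 10 counts. The lowest count in a G. racemosa library had a median of 23.5 over the members; it was under 20 in 35 of them and 50 or more in 21. The 3 with the lowest G. racemosa mean were Gpru_v1_contig_7597, Gpru_v1_contig_22491 and Gpru_v1_contig_18711. Gpru_v1_contig_7597 had 8.72, 16.6 and 5.61 CPM in pruinosa plants 1, 2 and 3, against 0.507, 0.262 and 0.240 CPM in racemosa plants 1, 2 and 3, which were 12, 17 and 12 counts.

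Gpru_v1_contig_22491 had 28.6, 12.2 and 6.70 CPM in the G. pruinosa plants, against 0.507, 0.293 and 0.240 CPM in the G. racemosa plants. Gpru_v1_contig_18711 had 5.82, 4.14 and 3.01 CPM in the G. pruinosa plants, against 0.465, 0.324 and 0.300 CPM in the G. racemosa plants. In both of these contigs plant 1 was highest and plant 3 lowest in CPM, in each species. In racemosa plants 1, 2 and 3, Gpru_v1_contig_22491 had 12, 19 and 12 counts. Gpru_v1_contig_18711 had 11, 21 and 15 counts there, so the order in G. racemosa rests on few counts. For the gap of 6.48 times in Gpru_v1_contig_18711, the 95% exact interval from counting error alone was 3.52 to 13.2. Such an interval lay wholly above 4 in 53 of the 86 members. The same counts chose the members, so this number is a description and not evidence on them. The interval takes reads as independent molecules, which they are not, and leaves out the spread between plants.

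The 4-fold threshold cut through a continuous range. Just inside it, Gpru_v1_contig_1686, Gpru_v1_contig_21560 and Gpru_v1_contig_36518 had gaps of 4.001, 4.01 and 4.09 times. Just outside, Gpru_v1_contig_32331, Gpru_v1_contig_24933 and Gpru_v1_contig_5100 had 3.99, 3.99 and 3.98 times. Counting error alone gave an interval of 3.92 to 4.09 for Gpru_v1_contig_1686 and 2.72 to 6.09 for Gpru_v1_contig_21560. The limit of 1000 CPM left out no contig that had the gap.

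Some members had neighbouring contig numbers, whose meaning in the assembly is not given in the sources used here. Gpru_v1_contig_6587 and Gpru_v1_contig_6588 were close in the G. pruinosa plants and differed most in racemosa plant 2, where the first had 0.693 CPM. The second had 11.7, 9.37 and 11.4 CPM in pruinosa plants 1, 2 and 3, against 1.18, 0.339 and 0.800 CPM in racemosa plants 1, 2 and 3. Gpru_v1_contig_12958 and Gpru_v1_contig_12960 shared their plant order in G. pruinosa, with 15.0, 28.4 and 74.7 CPM in the first and 19.9, 47.8 and 143 CPM in the second. Gpru_v1_contig_7380 and Gpru_v1_contig_7382 were less alike, with 50.6, 68.2 and 44.7 CPM in the first and 2.38, 16.4 and 6.51 CPM in the second in pruinosa plants 1, 2 and 3. These pairs were the only members whose numbers differed by 2 or less, and they were singled out after the data were seen. Whether the contigs of a pair belong to 1 gene was not tested.

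The opposite pattern was found in 1 contig. It asked for every G. racemosa plant at least 4 times above every G. pruinosa plant, under the same count minimum and CPM limit. Pruinosa plant 3 thus had to lie at least 4 times below racemosa plant 1. In the 8311 contigs that racemosa plant 1 counted 500 times or more, plant 3 never went under 0.294 of its CPM. None of these could show the opposite pattern, so the 86 and the 1 are not a comparison of the directions. Without pruinosa plant 3 the numbers were 204 contigs higher in G. pruinosa and 356 higher in G. racemosa. Without racemosa plant 1 they were 230 and 57. In these counts the minimum and the limit were asked of the remaining libraries only. The 186 contigs given above without racemosa plant 1 had to meet them over all 6 libraries. The balance of the directions thus depended on pruinosa plant 3 and racemosa plant 1.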

How the data were processed

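Per the labels' protocols, stranded libraries of polyadenylated leaf RNA from 6 plants were sequenced with paired ends. The authors deposited raw read counts per contig, 1 file per library, counted on the G. pruinosa assembly (per the series' design text and the file headers). Not given in the sources used here are the assembler, mapper and counting program, whether strand was used, and how reads matching several contigs were treated.

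CPM used plain library totals. No library pair held identical values. The whole table was fitted in edgeR 4.0.16 (R 4.3.3) with TMM scaling, filterByExpr (minimum count 10), glmQLFit and glmQLFTest, species as the only term, Benjamini-Hochberg adjustment, and a threshold of 0.05. Standard errors are the absolute log2 fold change over the square root of F. The fit was tested on simulated data. P-values set the species difference against the spread between 3 plants a species, which the fit estimates with information shared across contigs.

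Alternatives were RLE, upper-quartile and no scaling, other filters, DESeq2 1.42.0, limma-voom (limma 3.58.1), a replicate block, other thresholds, thinned libraries and leaving out each library. Leaving out both pruinosa plant 3 and racemosa plant 1 was chosen after seeing the data. Plants with the same replicate number grew at different sites, and the labels do not pair them.

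The members, the comparisons and the rule for naming contigs were chosen with earlier results of these data known. Named were the 8 members highest in mean, the 6 with the widest gap, the 4 with the smallest and the 4 with the largest spread in G. pruinosa, the 3 contigs on either side of the threshold, the 2 most abundant led by each G. pruinosa plant and the 3 lowest in G. racemosa.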

Additional observations from a re-analysis of the deposited data

How the results depend on the processing

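The number of members, 86, was 410 at 2-fold and 29 at 8-fold, 51 and 21 with minimums of 20 and 50 counts, 83 with TMM-scaled totals (80 shared), 62 on thinned libraries (60 shared), and from 105 to 230 without 1 library. It was 170 without pruinosa 1, 204 without pruinosa 3 and 230 without racemosa 1, and 492 without both of the last. Where a library was left out here, the count minimum and the CPM limit were asked of the remaining libraries only. In edgeR, 492 of 43447 contigs were called. A separate edgeR fit with a stricter filter, of the 28198 contigs with at least 10 counts in each library, called 26. With a replicate block 16 were called, with DESeq2 4156, and from 0 to 2121 without 1 library. The causes of these differences were not tested. The members called, 74, numbered from 61 to 84 under the other scalings, no filter and the other tools. They numbered 22 with the stricter filter, 1 with the block and from 0 to 84 without 1 library. Over all contigs tested, edgeR called 483 of 43447 higher, and 447, 408 and 489 with RLE, upper-quartile and no scaling. With no filter it called 356 of 54968 higher, with the stricter filter 26 of 28198, and with the block 16 of 43447. DESeq2 called 2857 of 43130 higher and limma-voom 387 of 43447. DESeq2 gave an adjusted p to 84 of the members and called all of these higher. Without pruinosa 1, 2 and 3 the members called numbered 52, 10 and 84. Without racemosa 1, 2 and 3 they numbered 1, 0 and 0. The contigs called over the whole table, in either direction, were 367, 41, 2121 (1326 higher), 7, 0 and 2, in the same order. The fit without racemosa 2, with 0 calls, had 5907 contigs at an unadjusted edgeR p under 0.05. At an adjusted p under 0.05, limma-voom on all libraries called 398 contigs, and at an unadjusted p under 0.05 DESeq2 and limma-voom gave 9193 and 8121. Deviations of same-numbered libraries from their species means correlated at -0.26, 0.03 and -0.20. In the pairs across species with unlike numbers they correlated at -0.13 to 0.31, and the highest value was that of pruinosa 3 with racemosa 1. The median log2 fold change of the members ranged from 3.79 to 4.11 without 1 library. The named contigs kept their direction in every fit that gave them a value. Their gaps, all near or above 4 times by the choice, left little room for another outcome. The share of members highest in pruinosa 2, 33.7%, was 48.3% at 8-fold (29 members). The median spread in G. pruinosa, 2.33 times, was 2.92 at 8-fold, 2.09 on thinned libraries and from 1.59 to 1.97 without 1 plant, and that in G. racemosa, 2.09, was 1.94 on thinned libraries and from 1.46 to 1.69 without 1 plant, as fewer plants give a narrower range. The members as a share of the contigs with the gap in 5 libraries were, at 8-fold, 41.4% for pruinosa 1, 54.7% for pruinosa 3, 54.7% for racemosa 1 and 90.6% for racemosa 2, and at 50 counts 35.0% for pruinosa 1 and 91.3% for racemosa 2; the cause was not tested. Depth limited racemosa 1 most, where 3 counts, the limit that a count of 0 allows, are 0.127 CPM.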
